A study of Mus musculus with 50 samples.

Results

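Hox genes encode homeobox transcription factors that give cells their position along the body axis, and they stand in 4 clusters, HoxA to HoxD, that arose from copies of an ancestral cluster. Genes at the same place in different clusters form a paralog group, and a low number marks the 3′ end of a cluster, whose genes are switched on early and towards the head, while a high number marks the 5′ end, whose genes are switched on late and towards the tail. Adult cells keep part of this code, and the group 11 genes Hoxa11, Hoxc11 and Hoxd11 are known to be needed together for the embryonic kidney to form. The members were chosen by symbol, as every gene of the count tables named Hoxa, Hoxb, Hoxc or Hoxd followed by a number. This gave 39 of 24984 listed genes, in 13 paralog groups: 11 in HoxA on chromosome 6, 10 in HoxB on chromosome 11, 9 in HoxC on chromosome 15 and 9 in HoxD on chromosome 2. In GRCm38.p6 the clusters span chr6:52155367-52260880, chr11:96194316-96368253, chr15:102921131-103036852 and chr2:74668225-74765142.

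The study profiled kidney and liver of female C57BL/6 mice by RNA-seq, and mapped open chromatin in the same tissues by ATAC-seq, in which a transposase cuts reachable DNA. RNA-seq groups of 4 libraries were young kidney and young liver (mice of 2.5 months) and old kidney and old liver (23 to 25 months), all untreated. Mice of 20 to 21 months that were given the solvent DMSO or an agent called 3C supplied 4 more groups of 4, kidney and liver for each, and skin fibroblasts labelled P9 given DMSO or 3C made 2 groups of 3. The ATAC-seq groups were the young and old kidneys and livers with 3 libraries each, so that 38 RNA-seq and 12 ATAC-seq libraries stood in 14 groups. What 3C and P9 stand for is not explained in the labels, nor whether the fibroblast libraries were separate cultures, so p-values measure the spread between libraries, which may be technical.

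RNA-seq totals were 14.24 to 43.7 M counts per library, 14.24 to 22.78 M in the young groups, 20.17 to 43.7 M in the old groups and 14.5 to 23.94 M in the DMSO and 3C groups. Levels are given as CPM, which scales each library's counts to the same total, and between genes as CPM per kb of exon. Marker genes followed the tissue labels: kidney tubule markers summed to 18300 to 33200 CPM in kidney and to no more than 23.7 CPM in liver, and fibroblast markers to 17000 to 23500 CPM in the fibroblasts. Old kidney replicate 2 stood apart, with hepatocyte markers at 3750 CPM against 173 to 282 CPM in the other old kidneys. Counting ignored strand, and Hoxa3, Hoxa11, Hoxb2 and Hoxb3 share 16.4, 24.8, 20.5 and 1.7% of their exon bases with antisense genes. Reads that fit both a Hox gene and a counted antisense gene go to a tally of ambiguous reads, which was left out. The levels of these Hox genes may therefore be too low. In bulk tissue, fewer cells that use a gene and less RNA per cell cannot be told apart.

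Much the same Hox genes were detected in kidney and skin fibroblasts, at differing levels, and few were detected in liver. In young kidney 29 of 39 genes reached 0.5 CPM in every library, where 53.3% of all listed genes did, and the set was Hoxa2 to Hoxa11, Hoxb2 to Hoxb9, Hoxc4 to Hoxc10 and Hoxd3 to Hoxd11. The same threshold was met by 30 of 39 in old kidney (55.2% of all genes), in DMSO kidney (58.1%) and in 3C kidney (57.6%). Liver was close to silent: 0 of 39 genes reached it in young liver (45.7%), Hoxb4 alone in old liver (46.7%), and Hoxb3 and Hoxb4 in DMSO liver (49.7%) and 3C liver (49.5%). Fibroblasts had 29 genes with DMSO (51.4%) and 30 with 3C (51.7%), among them Hoxc13, at the 5′ end of HoxC, for which no read was counted in any kidney or liver library. Against DMSO kidney, the DMSO fibroblast set lacked Hoxa6, Hoxd10 and Hoxd11 and added Hoxc11 and Hoxc13.

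The kidney code was carried mainly by HoxB and HoxD. Summed over its genes in CPM per kb, young kidney had 67.1 ± 1.44 for HoxA, 116 ± 6.82 for HoxB, 29.4 ± 2.5 for HoxC and 119 ± 4.41 for HoxD (SD, n = 4). HoxB and HoxD so held 35.0% and 35.9% of all Hox RNA, and HoxC 8.88%. The total over the 39 genes was 331 ± 8.4 CPM per kb in young kidney, 354 ± 14.3 in old kidney and 608 ± 16.5 in DMSO kidney. The DMSO and 3C tables carry other tallies of reads outside genes than the young and old ones, so these totals were not compared across that divide.

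Hoxd8, a central HoxD gene, was the strongest Hox gene of the kidney. Its level was 151, 158, 154 and 140 CPM in the 4 young kidneys, 157, 147, 161 and 161 CPM in the old kidneys and 251, 217, 233 and 222 CPM in the DMSO kidneys. Per kb this was 69.7 CPM in young kidney, 21.0% of all Hox RNA, and no other Hox gene overlapped it in any of the 4 kidney groups. Hoxb6 came next with 30.8 CPM per kb, followed by Hoxd9 (27.5), Hoxb7 (23.5), Hoxa10 (22.3), Hoxb8 (19.6) and Hoxb9 (17.5). Along HoxD the level per kb in young kidney rose from 0.00751 at Hoxd1 through 3.29 at Hoxd3 and 5.12 at Hoxd4 to the peak at Hoxd8. It then fell through 27.5 at Hoxd9, 12.1 at Hoxd10 and 1.06 at Hoxd11 to 0.0331 at Hoxd12, and no Hoxd13 read was counted. Within HoxA the highest level was at Hoxa10, and the 5′ limit was Hoxa11 at 1.82 CPM per kb, with 0 for Hoxa13, a gene of the limb and genital buds.

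Of the group 11 genes, Hoxd11 had 5.08, 3.61, 2.81 and 6.32 CPM in the young kidneys and 6.51, 7.03, 7.03 and 8.22 CPM in the DMSO kidneys. Hoxc11 was far lower, at 0.164 to 0.336 CPM in the young kidneys. Group 11 as a whole made up 0.944% of the young kidney's Hox RNA per kb, against 13.8% for group 10 and 19.3% for group 9.

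The fibroblasts put HoxC first. In the DMSO fibroblasts HoxC summed to 179 ± 12.8 CPM per kb, 52.2% of all Hox RNA, HoxB to 125 ± 8.12 (36.5%), HoxA to 20.1 ± 0.361 (5.88%) and HoxD to 18.7 ± 1.07 (5.44%; SD, n = 3). Hoxc6 led with 68.4 CPM per kb, above every other Hox gene in each library, and Hoxc8 (42.6) and Hoxb9 (38.8) followed. Hoxc9 (24.6), Hoxb6 (24.5) and Hoxc10 (24.3) came after them, and of these Hoxc9 and Hoxb6, and Hoxb6 and Hoxc10, overlapped between libraries. Hoxc13, known for its role in hair and nail, was at 7.47, 6.18 and 5.39 CPM with DMSO and at 7.0, 6.32 and 6.61 CPM with 3C.

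What Hox RNA liver had came mostly from the 3′ part of HoxA and HoxB, whose genes act towards the head. The 10 HoxA and HoxB genes of groups 1 to 5 gave 281 counts over the 4 young livers, the 4 genes of groups 6 and 7 gave 19, and the 7 genes of groups 8 to 13 gave 0. HoxC gave 1 count and HoxD gave 0. In old liver the same classes had 424, 95 and 7 counts, with 2 for HoxC and 6 for HoxD, and groups 6 and 7 held 9.19% and 16.9% of the Hox RNA per kb there, with Hoxb7 first in mean level but overlapping the next. In DMSO liver they had 715, 59 and 8 counts, with 7 for HoxC and 7 for HoxD. Per library, groups 1 to 5 of HoxA and HoxB summed to 3.18 ± 0.591 CPM in young liver, 4.51 ± 1.17 in old liver, 9.7 ± 0.652 in DMSO liver and 8.64 ± 1.32 in 3C liver (SD, n = 4). Kidney tubule markers in the young and old livers stood at no more than 0.00121% of their kidney level, in the DMSO livers at no more than 0.0101%, and in the 3C livers at no more than 0.116%, the highest being replicate 4.

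To ask how kidney and liver differ in the code, they were compared in 3 separate sets of mice with edgeR's quasi-likelihood test, and calls required an adjusted p (Benjamini-Hochberg) under 0.05 together with a fold over 2. In young mice 29 of 39 Hox genes were higher in kidney, where 25.7% of all genes tested were, and 0 were lower (16.9%). In old mice 28 were higher (24.6%) and 0 lower (16.1%), and in DMSO mice 30 were higher (26.6%) and 0 lower (15.7%). The count of 0 lower was also 0 in the 3 sets with DESeq2 and at an unadjusted p under 0.05. Most of these genes passed the filter on low counts through kidney alone, since 3 Hox genes passed it when young and old livers were tested on their own, so the counts and their direction are a description and do not measure how Hox genes compare with other genes. The scaling of edgeR lowered the kidney to liver differences by 1.09, 1.09 and 1.0 on the log2 scale against the CPM values, and the folds given for these comparisons include that shift.

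Several central and 5′ genes had no read in liver, which leaves a lower bound on the fold that follows the kidney level and gives no order between genes. Hoxd8 had 0 counts in all 4 young livers, so the kidney was at least 2080-fold higher, a bound set at 3 counts over the group. Hoxa10, of the group that patterns the lumbar region, was at 63.9, 74.8, 69.1 and 72.1 CPM in the young kidneys and at 0 in the young livers, at least 970-fold higher. Every young kidney therefore stood above every young liver for both genes. Hoxb9 was at 51.0, 45.6, 49.1 and 43.8 CPM in young kidney and 63.5, 55.0, 61.2 and 75.7 CPM in old kidney, with no read in any young, old or DMSO liver, at least 656-fold, 943-fold and 1100-fold higher in the 3 sets. Hoxd10, a 5′ HoxD gene, was at 22.2, 22.6, 23.3 and 21.6 CPM in young kidney and 22.0, 20.0, 22.8 and 24.2 CPM in old kidney, again with no liver read and a bound of 311-fold and 329-fold. Among the other tested genes without a read in young liver, the bounds ran from 25.5-fold for Hoxa6 to 801-fold for Hoxd9, with Hoxb8 at 718-fold, Hoxa9 at 652-fold and Hoxc10 at 299-fold.

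Several 3′ HoxB genes had liver reads and were higher in kidney. In HoxD, by contrast, Hoxd3 and Hoxd4 had no read in young liver. Hoxb4, best known from blood stem cells, was at 17.3, 15.4, 15.6 and 13.9 CPM in young kidney and at 0.498, 1.01, 0.386 and 0.901 CPM in young liver, log2 3.37 ± 0.29 (SE, adjusted p 6.506e-07 by edgeR). In old mice the difference was 2.88 ± 0.25 and in DMSO mice 3.18 ± 0.12 on the log2 scale. The groups did not overlap in any set. Hoxb3 differed by 4.1, 4.07 and 3.69 and Hoxb5 by 3.03, 2.61 and 4.4 on the log2 scale in the young, old and DMSO sets. The lung gene Hoxa5 differed by 3.76, 4.85 and 5.06.

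In HoxA, Hoxa2, which patterns the hindbrain and pharyngeal arches, gave a call that did not hold in every set. It was called in young mice at log2 1.7 ± 0.69 (adjusted p 0.04608 by edgeR), not in old mice at 0.52, and in DMSO mice at 2.25. Its call in young mice was lost without young liver replicate 1, 2 or 3 and without young kidney replicate 3 or 4, which left 28 genes called. Hoxa4 in old mice was at 2.74 ± 0.433 CPM in kidney and 0.572 ± 0.353 CPM in liver (SD, n = 4), log2 1.18, which missed the threshold (adjusted p 0.05728 by edgeR). DESeq2 called Hoxa4 there, as did edgeR without old liver replicate 2.

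**Figure D1:**
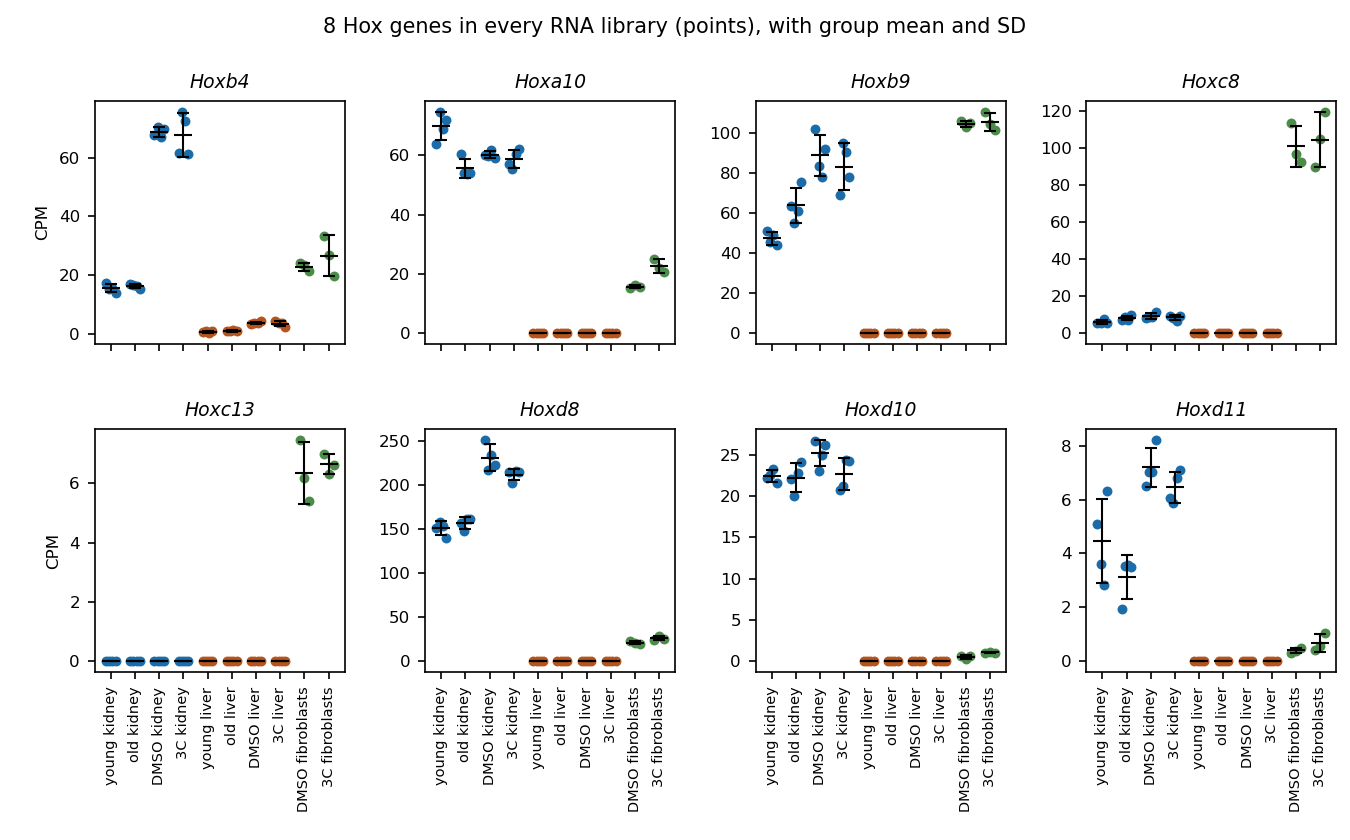
CPM of 8 Hox genes in each RNA-seq library, by group, with the mean and SD as bars. Hoxd8, Hoxa10, Hoxd10 and Hoxd11 are high in the kidney groups and near 0 in the liver groups, Hoxc8 and Hoxc13 are high in the fibroblasts, Hoxb9 is high in both kidney and fibroblasts, and Hoxb4 is the gene with the clearest liver signal.

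To compare the code of cultured skin fibroblasts with that of an organ, the DMSO fibroblasts were set against the DMSO kidneys, whose tables carry the same tallies. In the fibroblasts 9 Hox genes were higher, where 22.8% of all genes were, and 17 were lower (32.4%). Among the higher genes were 8 of the 9 HoxC genes, namely Hoxc4, Hoxc5, Hoxc6, Hoxc8, Hoxc9, Hoxc10, Hoxc11 and Hoxc13. The 17 lower genes were Hoxa3 to Hoxa7, Hoxa9, Hoxa10, Hoxb3, Hoxb4, Hoxb6, Hoxb8 and 6 of the 9 HoxD genes, Hoxd3, Hoxd4 and Hoxd8 to Hoxd11. Skin origin and growth in culture cannot be told apart in this comparison.

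Hoxc8, a gene of the lower thorax, was at 113, 96.8 and 92.5 CPM in the DMSO fibroblasts and at 8.27, 8.34, 8.59 and 11.4 CPM in the DMSO kidneys, 13.5-fold or log2 3.76 ± 0.13 higher (SE, adjusted p 8.181e-11 by edgeR). Hoxc6 was at 114, 117 and 96.0 against 33.2, 26.0, 27.8 and 34.7 CPM, log2 2.13 ± 0.12 (adjusted p 5.488e-09). Neither gene overlapped between the groups. Hoxc5 rose by 2.54, Hoxc9 by 1.98, Hoxc10 by 1.7, Hoxc11 by 1.41 and Hoxc4 by 1.37 on the log2 scale, and Hoxc13 was at least 177-fold higher.

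At the 5′ end of HoxD the order was turned. Hoxd10 was at 0.647, 0.251 and 0.612 CPM in the DMSO fibroblasts against 26.7, 23.1, 24.9 and 26.2 CPM in the DMSO kidneys, 41.5-fold lower (log2 -5.37 ± 0.23, SE, adjusted p 6.846e-10 by edgeR). Hoxd9 was at 7.64, 7.22 and 8.21 against 101, 93.6, 88.9 and 98.0 CPM, log2 -3.34. All fibroblasts were below all kidneys for both. Hoxd11 was lower by log2 -3.93, Hoxd8 by -3.2, Hoxd3 by -3.26 and Hoxd4 by -2.44, and in HoxA Hoxa3 by -3.19. Hoxa6 was called at -5.24, but all its fibroblast reads were in replicate 2 (0.376 CPM), and without that library the fit gave -9.81 against a group at 0, which is no bound. The most 5′ genes were too low for the filter of the test and lay the other way. Hoxd13, a gene of digits and genitalia, was at 0.345, 0.376 and 0.245 CPM in the DMSO fibroblasts and at 0 in the kidneys, at least 8.96-fold higher, and Hoxc12 was at least 12.9-fold higher. Hoxb13 had a count ratio of 13.8 (95% exact interval 3.38 to 122, counting error only).

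HoxB genes were the most alike. Hoxb9 was at 106, 103 and 105 CPM in the DMSO fibroblasts and at 102, 83.8, 78.0 and 92.1 CPM in the DMSO kidneys, log2 0.53, which passed the adjusted p but not the fold. Hoxa11 (0.68), Hoxb5 (-0.67) and Hoxb7 (-0.73) also passed the adjusted p alone, as 38.3% of all genes did upwards and 45.0% downwards. Hoxa2 (-0.43) and Hoxb2 (-0.31) passed neither. The largest falls in HoxB were those of Hoxb3 (-1.61), Hoxb6 (-1.4), Hoxb8 (-1.35) and Hoxb4 (-1.29) on the log2 scale.

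**Figure D2:**
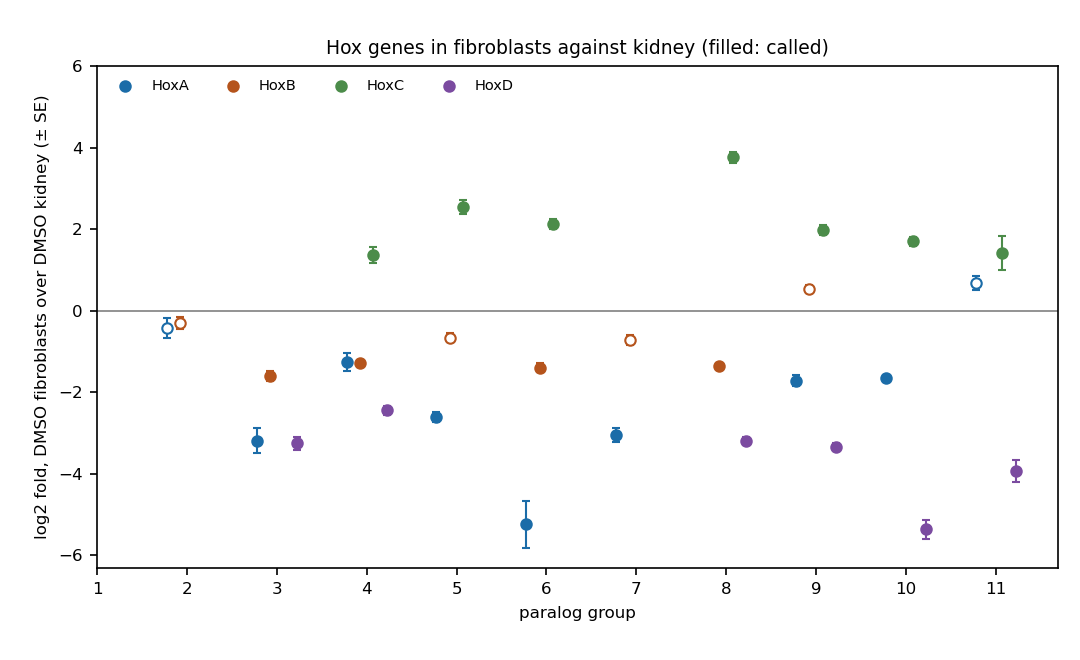
Log2 fold change with its SE between DMSO fibroblasts (n = 3) and DMSO kidney (n = 4) for 30 tested Hox genes with counts in both groups, by paralog group, with clusters in colour and called genes filled. The 24 filled points are above 0 for HoxC and below 0 for HoxA, HoxB and HoxD.

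Against DMSO liver, 28 of 39 genes were higher in the same DMSO fibroblasts (28.2% of all genes) and 0 were lower (29.8%) by edgeR, with 0 lower at an unadjusted p under 0.05 and by DESeq2, and here too most genes passed the filter through fibroblasts. Hoxb9 was at least 1530-fold, Hoxc8 at least 1480-fold, Hoxc10 at least 680-fold and Hoxc13 at least 92.8-fold higher, with no liver read for any of them. Hoxa3 was the one tested gene not called, at 1.11 ± 0.67 CPM in fibroblasts (SD, n = 3) and 0.69 ± 0.22 CPM in liver (SD, n = 4), log2 -0.07 ± 0.49 (SE, adjusted p 0.8953 by edgeR). The scaling lowered differences by 0.75 on the log2 scale against the CPM values here, and raised those between fibroblasts and kidney by 0.29. The comparison shares its fibroblasts with the one above and its livers with the kidney one, so the 3 are not independent.

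Hox genes were also compared between ages in kidney. Of 30 tested genes 1 was higher in old kidney, where 5.68% of all genes were, and 0 were lower (0.407%) by edgeR, and 1 and 0 by DESeq2. At an unadjusted p under 0.05 by edgeR, 6 were higher and 5 lower, against 2383 and 1977 of all 14495 genes. The median log2 change was -0.012 over the tested Hox genes and 0.021 over all genes. The count of 1 was 0 when any 1 of the 8 libraries was left out.

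Smaller shifts went up for some HoxB genes and down for some HoxA genes and Hoxc10. In old kidney Hoxb7 was at 47.5, 41.4, 47.5 and 54.4 CPM against 28.3, 29.1, 28.4 and 33.5 CPM in young kidney, log2 0.64 (adjusted p 0.0128 by edgeR). Hoxa9 was at 28.0, 37.0, 25.1 and 27.7 against 46.3, 48.8, 51.2 and 42.1 CPM, log2 -0.71 (adjusted p 0.00502). Hoxc10 was at 12.9, 16.2, 14.2 and 15.9 against 25.2, 20.9, 23.0 and 17.5 CPM, log2 -0.58 (adjusted p 0.0189). None of the 3 overlapped between ages, and none passed the fold threshold. By the adjusted p alone 8.15% of all genes were higher and 3.36% lower. Hoxb2, Hoxb6, Hoxb7 and Hoxb9 lay wholly above in old kidney, where 13.5% of all genes did, and Hoxa7, Hoxa9, Hoxa10 and Hoxc10 wholly below (3.85%). Not all genes of a cluster followed. On the log2 scale Hoxb3, Hoxb4 and Hoxb5 changed by 0.08, 0.05 and 0.05, and Hoxa4 and Hoxa11 by 0.3 and 0.2. The HoxB share of Hox RNA was 32.4 to 36.8% in young and 41.6 to 45.0% in old kidney, and the HoxA share 19.7 to 21.0% and 13.5 to 17.5%. Cell makeup moved as well, since B and plasma cell markers summed to 5.06 to 10.2 CPM in young and 363 to 534 CPM in old kidney, macrophage markers to 61.4 to 75.7 and 138 to 249, and collecting duct markers to 1190 to 1570 and 987 to 1160. The part of these cells in the Hox shifts was not tested.

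In liver 3 Hox genes were tested with age and 0 were called (1.69% of all genes higher, 0.439% lower) by edgeR, and 0 at an unadjusted p under 0.05 in either direction. Hoxb4 was at 0.918, 0.9, 1.49 and 0.901 CPM in old liver, log2 0.52 against young liver (adjusted p 0.7034), and Hoxb3 and Hoxb5 had 0.06 and 0.43. DESeq2, which filtered less, called Hoxa4 and Hoxb6 higher. Hoxb6 gave 2 counts in the young and 34 in the old livers, a ratio of 15.2 (95% exact interval 3.91 to 131), and Hoxa4 gave 7 and 56. Both lay wholly above in old liver, as 6.72% of the tested genes did. Markers of B and plasma cells summed to 2.37 to 3.42 CPM in young and 17.3 to 71.3 CPM in old liver, those of T cells to 1.06 to 1.8 and 2.74 to 3.18, and those of macrophages to 268 to 368 and 420 to 750. The part of these cells in the Hox values was not tested.

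Whether the age effect differed between the organs was tested as an interaction, which called Hoxb6 as less raised in kidney than in liver (log2 difference -3.46 ± 0.68, adjusted p 0.0182 by edgeR, where 0.871% of all genes were called lower and 0.845% higher). The kidney change was 0.34. Hoxb6 stood at 0 to 0.0451 CPM in the young livers and 0.187 to 0.558 CPM in the old livers, so the difference rests on few liver reads. Hoxb6 did not pass the filter when young and old livers were tested on their own. It entered the interaction through kidney, so the call is a description.

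By edgeR no gene of any kind was called with 3C in kidney or liver, so the absence of Hox calls there is not particular to Hox genes. In kidney 0 of 30 tested Hox genes were called (0.0% of all genes), and 0 by DESeq2. At an unadjusted p under 0.05 by edgeR, 0 were higher and 1 lower, against 724 and 1062 of all 14974 genes. Hoxd8, at 214, 202, 215 and 214 CPM with 3C, and Hoxd9, at 83.8, 78.8, 86.1 and 86.7 CPM, lay wholly below the DMSO kidneys, as 5.35% of all genes did. For Hoxd9 the log2 change was -0.15 (p 0.0301, adjusted p 0.3608 by edgeR). In liver 0 of 5 were called (0.0% of all genes), 0 at an unadjusted p under 0.05 and 0 by DESeq2. The median log2 change of the tested Hox genes was -0.032 in kidney and -0.083 in liver. Whether the 3C effect differed between the organs was tested too, and 0 Hox genes were called by edgeR and by DESeq2. At an unadjusted p under 0.05 by edgeR, 2 were higher and 1 lower, against 226 and 328 of all 15526 genes.

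In the fibroblasts 4 of 30 tested Hox genes were higher with 3C and 0 lower at an unadjusted p under 0.05 by edgeR, against 1441 and 1273 of all 13449 genes. By edgeR 1 gene was called higher (1.23% of all genes) and 0 lower (0.632%), and 1 and 0 by DESeq2. It was Hoxa7, a trunk gene also known from blood progenitors, at 2.72, 4.26 and 2.63 CPM with DMSO and 8.54, 7.42 and 4.94 CPM with 3C, log2 1.06 ± 0.26 (adjusted p 0.04732). The groups did not overlap, and the call was lost without DMSO replicate 1 or 3 or 3C replicate 1 or 2, with adjusted p of 0.119 to 0.18. The tested genes lay wholly above the DMSO fibroblasts in 9 cases (Hoxa5, Hoxa7, Hoxa9, Hoxa10, Hoxb8, Hoxd4, Hoxd8, Hoxd9 and Hoxd10), as 15.9% of all genes did, with a median log2 change of 0.187 over the tested Hox genes and 0.007 over all genes. Hoxa10 was at 25.1, 22.0 and 20.6 CPM with 3C against 15.1, 16.2 and 15.5 CPM, log2 0.48, which missed the threshold (adjusted p 0.06135). Hoxd10 was at 1.01, 1.15 and 0.963 CPM with 3C, log2 1.02 (adjusted p 0.2352).

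ATAC-seq peaks over the clusters were read from the peak lists, with a start counted as open in a library when a peak lay within 1 kb of any RefSeq start of the gene. In young kidney 19 of 39 Hox genes were open in all 3 libraries (59.2% of all genes) and in old kidney 22 (57.4%), but in young liver 2 (53.2%) and in old liver 6 (52.9%). The starts open in all 3 young kidneys and no young liver were those of 11 genes (3.03% of all genes), Hoxb2, Hoxb6, Hoxb7, Hoxb9, Hoxc5, Hoxc10, Hoxd3, Hoxd8, Hoxd9, Hoxd10 and Hoxd11. In old mice they were 6 (2.08%), Hoxb9, Hoxc8, Hoxc9, Hoxc13, Hoxd3 and Hoxd10, and 10 without old kidney replicate 1 or old liver replicate 1. Hoxb9, Hoxd3 and Hoxd10 met this at both ages (1.22%), and 0 genes were open in liver alone at either age (0.974% and 0.667%). For a peak list the depth is unknown, so a start without a peak was not called at that library's depth.

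**Figure D3:**
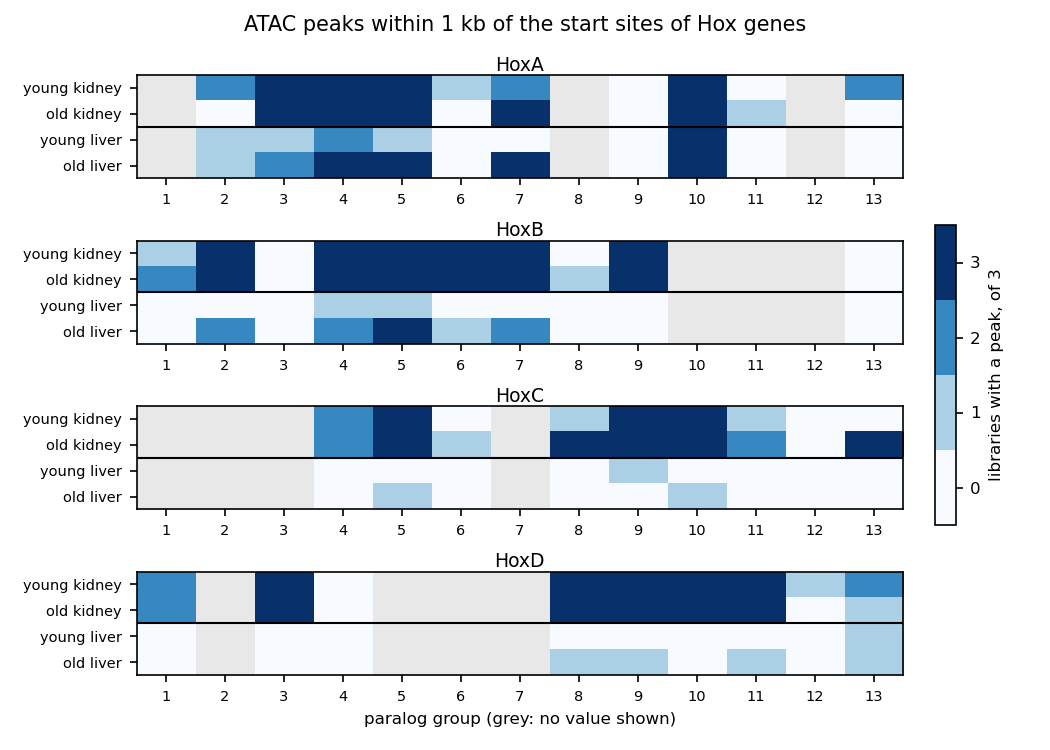
Number of ATAC-seq libraries, of 3 in each group, with a peak within 1 kb of a start of each Hox gene. Hoxa10 is filled in all 4 groups, Hoxb9, Hoxd3 and Hoxd10 in both kidney groups and in neither liver group, and Hoxa9, Hoxb3, Hoxb13, Hoxc12 and Hoxd4 in none.

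The peak at Hoxd10, a gene with no liver read, had a fold enrichment over local background of 4.1 to 4.98 in young kidney and 4.46 to 5.52 in old kidney, with none in liver. At Hoxb9 it was 3.2 to 3.68 and 2.88 to 3.59, and at Hoxd3 3.24 to 3.56 and 2.33 to 3.13. Hoxa10 was open in all 12 libraries, as 48.1% of all genes were, while it had no RNA-seq read in a young or old liver. The fold was 5.56 to 6.72 in young kidney, 3.81 to 4.89 in old kidney, 3.8 to 5.06 in young liver and 3.52 to 6.54 in old liver, so that the ages and organs overlapped except for young kidney, which lay above old kidney and young liver. Hoxa9, Hoxb3, Hoxb13, Hoxc12 and Hoxd4 had no peak in any library (23.7%), though Hoxa9 RNA reached 42.1 to 51.2 CPM in young kidney. Of the 29 genes with RNA in every young kidney, 18 were open in all 3 young kidney libraries and 6 in none (Hoxa9, Hoxa11, Hoxb3, Hoxb8, Hoxc6 and Hoxd4). With age, Hoxc13 gained a kidney start (0.172% of all genes) and Hoxa7 a liver start (0.27%), and 0 were lost in kidney (0.418%) or liver (0.364%). Without young liver replicate 3 the liver count was 3, and without young kidney replicate 2 the kidney count was 2.

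To set base composition beside these patterns, the 250 bases before the start are printed for 4 genes, 5′ to 3′ on the gene's strand from GRCm38.p6 with RefSeq starts and with each CpG in capitals. Hoxd10 (chr2:74691641-74691890, plus strand) was open in 6 of 6 kidney and 0 of 6 liver libraries. Hoxa10 has 2 RefSeq starts on the minus strand and both are shown. At the second (chr6:52240855-52241104) a region was open in all 12 libraries, while the region nearest to the first (chr6:52234940-52235189), 726 bp away at chr6:52233467-52234213, was open in 6 kidney and 0 liver libraries. Hoxa9 (chr6:52227371-52227620, minus strand) was open in none, and Hoxd13 (chr2:74667975-74668224, plus strand), with no read in a young or old kidney or liver, was open in 3 kidney and 2 liver libraries.
Hoxd10: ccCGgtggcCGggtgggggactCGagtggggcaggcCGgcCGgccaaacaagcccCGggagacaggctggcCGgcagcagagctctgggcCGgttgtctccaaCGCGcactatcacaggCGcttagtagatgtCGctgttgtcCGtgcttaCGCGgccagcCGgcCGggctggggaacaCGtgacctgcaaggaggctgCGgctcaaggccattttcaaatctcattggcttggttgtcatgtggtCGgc
Hoxa10 first: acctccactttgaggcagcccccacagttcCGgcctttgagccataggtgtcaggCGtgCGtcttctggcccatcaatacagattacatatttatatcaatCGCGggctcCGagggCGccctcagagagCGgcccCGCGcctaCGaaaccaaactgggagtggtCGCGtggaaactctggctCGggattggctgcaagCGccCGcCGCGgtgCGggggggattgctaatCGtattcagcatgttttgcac
Hoxa10 second: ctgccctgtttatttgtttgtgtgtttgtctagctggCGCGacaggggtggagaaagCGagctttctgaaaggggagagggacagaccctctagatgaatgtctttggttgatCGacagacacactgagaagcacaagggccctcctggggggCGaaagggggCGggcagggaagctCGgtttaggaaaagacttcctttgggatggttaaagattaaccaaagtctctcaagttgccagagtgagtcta
Hoxa9: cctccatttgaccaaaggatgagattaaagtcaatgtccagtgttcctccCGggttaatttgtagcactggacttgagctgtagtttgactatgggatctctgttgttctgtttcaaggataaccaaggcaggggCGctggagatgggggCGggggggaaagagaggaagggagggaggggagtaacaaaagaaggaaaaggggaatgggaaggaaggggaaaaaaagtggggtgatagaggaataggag
Hoxd13: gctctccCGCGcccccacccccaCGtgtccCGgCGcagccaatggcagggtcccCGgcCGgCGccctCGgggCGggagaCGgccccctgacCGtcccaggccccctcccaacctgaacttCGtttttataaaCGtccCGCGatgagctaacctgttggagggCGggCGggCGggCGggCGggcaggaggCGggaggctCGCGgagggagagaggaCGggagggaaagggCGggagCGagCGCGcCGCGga
The stretch before Hoxd10 held 20 CpG at a GC content of 65.6%, and its CpG count was 0.755 of that expected from its bases. The Hoxa10 stretches held 20 and 7 CpG (0.913 and 0.458 of expected), Hoxa9 3 (0.266) and Hoxd13 31 (0.901). CpG was thus dense before Hoxd13, which gave no read in a young or old kidney or liver, and sparse before Hoxa9, which did in kidney. The RefSeq promoter table, 250 bases before to 50 after a start, held 24 promoters of 22 of the 39 members, with a median GC content of 57.7% against 52.7% over all 32851 promoters and a median CpG ratio of 0.626 against 0.384. The letters TGATTNAT, known from joint binding of Hox and Pbx proteins, were found on either strand in 2 of the 24 (Hoxa2 and Hoxd11; 8.33% against 3.22% of all). The letters TTTATNG, known from 5′ Hox proteins, were also in 2 (Hoxb8 and Hoxd4; 8.33% against 10.9%).

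Over whole clusters, extended by 5 kb on each side, peaks covered more of each cluster in every kidney than in every liver library at both ages. With peaks of a −log10 q of at least 5 this held for 3 of the 4 clusters in old mice, since HoxC had 706 bp in old kidney replicate 2 and 878 bp in old liver replicate 3. HoxD had 9686 to 12097 bp under peaks in young kidney, 7575 to 9279 in old kidney, 1071 to 2222 in young liver and 496 to 2356 in old liver. HoxB had 12803 to 15268, 10464 to 11792, 702 to 1833 and 2729 to 6104 bp in the same order. HoxC, the cluster with the least kidney RNA, also had the least, 5707 to 6794 bp in young kidney and 325 to 841 bp in young liver. The exception was old liver replicate 3, where HoxD had less (496 against 1867 bp). HoxA had 1801 to 4251 bp in young and 4304 to 7687 bp in old liver, the most of the 4 clusters in 5 of 6 liver libraries, and in young liver replicate 1 HoxD had more (1967 against 1801 bp). Old liver was above young liver in every library for HoxA and HoxB, and young kidney above old kidney for HoxB and HoxD. The latter count was 0 when the same number of top peaks was taken from each library, and 4 without old kidney replicate 3. As a mean share of all bases under peaks (ppm), HoxB had 272 ppm in young and 260 ppm in old kidney, 26.5 ppm in young and 97.6 ppm in old liver.

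**Figure D4:**
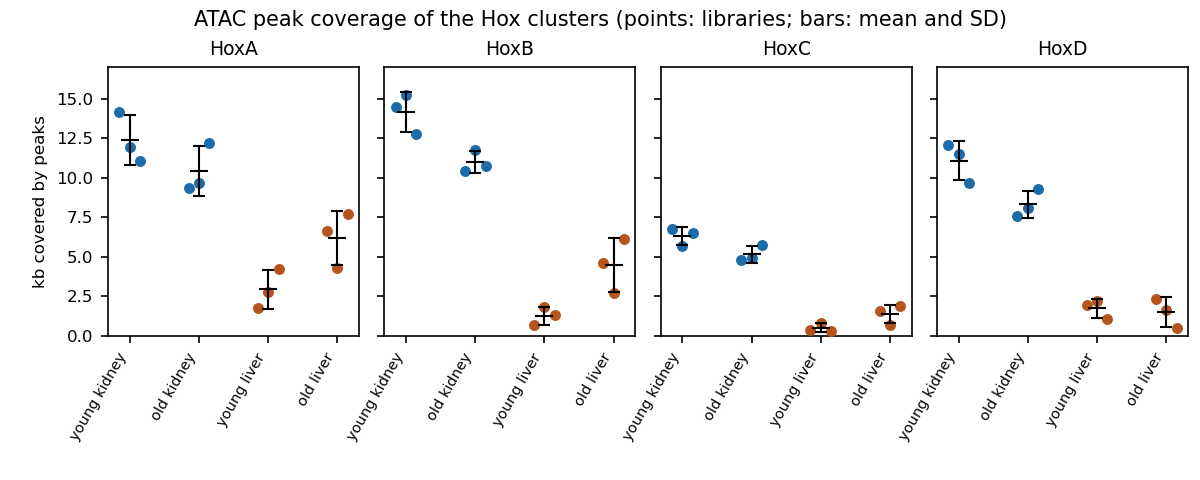
Length under ATAC-seq peaks in each of the 4 clusters, in kb, with a point for each library and 3 libraries in each group. Kidney points lie above all liver points in every cluster, and old liver points lie above young liver points in HoxA and HoxB.

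Merged over the 12 libraries, the clusters held 183 open regions, of which 110 had a peak in kidney and in no liver library and 18 in liver alone. A peak in all 6 kidney and no liver libraries was found for 19 regions, 4 in HoxA, 7 in HoxB, 2 in HoxC and 6 in HoxD, while 0 regions were open in all 6 livers and no kidney. The region of liver alone that was open in the most libraries was chr2:74702262-74702550 in HoxD, open in 5. Regions open in all 6 kidneys and at least 5 livers were 9. A 12-base core of the motif of CTCF, a protein that parts chromatin domains within Hox clusters, with 7 fixed bases, was sought in them on both strands, a choice made after the regions were seen. It was in 7 of these 9 (77.8%), in 6 of the 19 kidney regions (31.6%), in 0 of the 18 liver regions and in 27 of all 183 (14.8%), against 19.5% of 57827 merged regions of young kidney replicate 1 between 339 and 1324 bp, the range of the first 2 sets. Lengths within that range were not matched, and the liver regions were shorter, 200 to 485 bp. A narrower form with 8 fixed bases, whose matches are a subset of these, was in 3 of the 9 (33.3%), in 0 of the 19 and in 4.37% of all 183, against 7.26% of the young kidney regions.

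Windows of 150 bases around a match in 4 of the 9 shared regions are printed on the plus strand of GRCm38.p6 with the match in capitals, to show where in the clusters shared openness lies. The first (chr6:52211213-52211362) is within an intron of Hoxa3 and open in all 12 libraries, and the second (chr6:52221740-52221889) lies between genes near Hoxa7, also open in all 12. The third (chr11:96278879-96279028) lies near Hoxb8, open in 6 kidneys and 5 livers, and the fourth (chr2:74673109-74673258) near Hoxd12, open in all 12.
HoxA Hoxa3 intron: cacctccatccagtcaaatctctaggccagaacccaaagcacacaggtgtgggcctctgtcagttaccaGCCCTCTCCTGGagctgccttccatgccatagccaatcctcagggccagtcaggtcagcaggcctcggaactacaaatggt
HoxA near Hoxa7: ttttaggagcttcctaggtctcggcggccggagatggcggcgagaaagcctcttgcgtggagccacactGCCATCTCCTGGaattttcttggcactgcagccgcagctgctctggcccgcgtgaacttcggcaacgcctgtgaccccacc
HoxB near Hoxb8: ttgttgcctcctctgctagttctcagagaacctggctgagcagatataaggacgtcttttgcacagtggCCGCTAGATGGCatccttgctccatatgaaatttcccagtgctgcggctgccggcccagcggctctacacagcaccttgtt
HoxD near Hoxd12: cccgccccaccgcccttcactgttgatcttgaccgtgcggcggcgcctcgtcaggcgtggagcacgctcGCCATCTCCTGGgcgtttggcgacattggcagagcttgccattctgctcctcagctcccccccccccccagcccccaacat
The match in the HoxB window is on the plus strand and the other 3 are on the minus strand. A match describes letters only, and binding of CTCF was not measured.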

How the data were processed

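RNA-seq was deposited as counts, whole numbers of reads per gene. Per the submitters' processing notes and the study's methods, the authors' steps were trimming (Trimmomatic 0.39), alignment to mm10 (HISAT2 2.2.1) and counting regardless of strand (HTSeq 0.12.4). For ATAC-seq the authors aligned with Bowtie2 2.3.5.1, removed duplicates, called peaks in each library with MACS2 and compared them with DiffBind 2.12.0. The deposited peak lists give each peak's fold enrichment as a ratio over local background, and the deposited −log10 p and −log10 q of each peak. No read depth goes with them.

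The 5 tally entries per count table (8.16 to 28.78% of reads outside genes) were left out of library sizes. The DMSO and 3C tables have no tally of non-unique alignments, unlike the young and old ones, so levels were not compared between these. Totals were 14.24 to 43.7 M (mean 20.34 M). Each comparison was fitted over all genes with edgeR 4.0.16 in R 4.3.3 (TMM scaling, filterByExpr at a minimum count of 10, quasi-likelihood F test, two-sided), and calls took the thresholds of the study, an adjusted p below 0.05 with a fold above 2 or below 0.5. The interaction fits used the adjusted p alone. Where one group had no count, the fold is a bound at 3 counts over the group, and where it had 1 to 3, the ratio has an exact 95% interval. Bounds and intervals cover counting error only. None of 54 replicate pairs differed by as little as sampling noise (chi-square per degree of freedom at least 8.12). Simulated counts with 200 genes changed by a fold of 4 gave 167 recovered and 11 false calls among 12206 genes for young kidney against young liver.

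Same-numbered young kidney and young liver libraries deviated together (correlations 0.118, 0.22, 0.105 and 0.459), so these numbers may pair the samples. The reported fits, SE and p-values did not use this pairing. It entered only in the alternative with the replicate number as a block, which kept 29 of 29 Hox calls in young mice. No other comparison met that mark of 0.1 in every pair.

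Gene models, starts and sequences were those of RefSeq on GRCm38.p6, matched for 24429 of the listed genes, and 0 of 1662540 peaks lay beyond a chromosome's end. Tried in turn were each library left out, the replicate number as a block, calls by adjusted p only, genes with a mean of at least 1 CPM, all genes unfiltered, scaling by RLE and a test with DESeq2 1.42.0. For detection they were 0.1 and 1 CPM, and for peaks a −log10 q of at least 5, equal numbers of top peaks, a window of 250 bp and, chosen after seeing the data, GENCODE starts. Python 3.11.15 with pandas 2.3.3, numpy 2.4.6, scipy 1.17.1 and matplotlib 3.10.9 was used. All members were eligible to be named. Of other genes, those of fixed pathway lists called with age or 3C, a few cofactors and noncoding genes of the clusters were. Results of some of these genes are not reported here. The members and lists were chosen with earlier results of these data known.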

Additional observations from a re-analysis of the deposited data

Results flagged for a closer look

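In 124 gene and group combinations of 4 libraries, 13 had a highest or lowest library whose gap to the nearest other exceeded Dixon's 95% critical value, where chance gives about 1 in 20. In young kidney these were Hoxa4 at 3.0 CPM in replicate 1 (others 1.84 to 2.04), Hoxb6 at 36.4 in replicate 2 (others 45.4 to 47.2) and Hoxb7 at 33.5 in replicate 4 (others 28.3 to 29.1). Hoxc8 was at 7.58 in young kidney replicate 3 (others 5.46 to 5.48) and Hoxd4 at 7.83 in replicate 4 (others 14.3 to 15.2). In old kidney replicate 1, Hoxa10 was at 60.4 (others 53.7 to 54.2) and Hoxd11 at 1.92 (others 3.48 to 3.57). In old liver replicate 3, Hoxb4 was at 1.49 (others 0.9 to 0.918). In DMSO kidney, Hoxb8 was at 133 in replicate 2 (others 139 to 140) and Hoxc8 at 11.4 in replicate 4 (others 8.27 to 8.59). In 3C kidney, Hoxa3 was at 9.25 in replicate 1 (others 12.8 to 13.3), Hoxb6 at 98.3 in replicate 4 (others 111 to 113) and Hoxd8 at 202 in replicate 2 (others 214 to 215).

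The fitted age effect on Hoxb6 differed between kidney and liver, by -3.46 ± 0.68 (SE) on the log2 scale, and the difference was -4.0 to -3.07 when each library was left out in turn. Hoxb6 passed the filter on low counts through kidney, and the difference rests on few liver reads.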

How the results depend on the processing

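Over the alternatives, 491 summary values stayed within their limits and 41 moved, and 209 single-gene values kept their call while 17 lost it. None changed direction. In each case the cause was not tested. The count of Hox genes higher in old kidney (1) was 0 with RLE size factors, without a filter and with a replicate block, 0 to 0 without each library in turn, and 2 by the adjusted p alone, which also gave 2 lower (0 before). In old liver DESeq2 called 2 higher (0 before). With 3C in fibroblasts the count of 1 was 0 to 1 without each library. The age interaction called 2 lower with DESeq2 and 1 to 2 without each library (2 without old liver replicate 3). Tissue counts stayed at 28 to 29 in young mice without each library, and the replicate block left 29 in young mice and gave 27 in old mice (28 before). Apart from these it changed no call. At 0.1 CPM 4 Hox genes were detected in young liver, 7 in old, 10 in DMSO and 8 in 3C liver, and at 1 CPM 0 in old liver.

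For ATAC-seq starts open in old kidney alone (6), a −log10 q of at least 5 gave 2, equal numbers of top peaks 10, and leaving out each library 6 to 10. Starts gained in old kidney (1) were 0 at that q, 2 with top peaks, 0 within 250 bp, and 1 to 2 without each library. Starts lost in old kidney (0) were 2 at that q and 0 to 1 without each library (1 without young kidney replicate 1 or 2). Starts gained in old liver (1) were 1 to 3 without each library (2 without old liver replicate 1 or 2). Clusters with every young kidney above every old kidney (2) were 0 with top peaks and 2 to 4 without each library. Low liver counts limit what can be said there, since 26 of 39 genes had no count in young liver.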

Other observations

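Of 16 listed noncoding genes inside the clusters, edgeR tested 6 between kidney and liver in young mice, 6 in old mice and 9 in DMSO mice, and called each of them higher in kidney, where 25.7, 24.6 and 26.6% of all genes were. In a test among young and old livers 1 of the 16 passed the filter on low counts, and among DMSO and 3C livers 0, so these genes were tested mostly through kidney and the counts are a description. Hoxb5os, antisense to the HoxB cluster, was at 21.5 ± 4.29 CPM (SD, n = 4) in young kidney and at 0 in young liver, at least 300-fold higher. Hotairm1, a noncoding RNA of the HoxA cluster, was at 6.35 CPM in young kidney and 0.205 CPM in young liver, log2 3.82. In the DMSO fibroblasts 6 of 9 were lower than in DMSO kidney, where 32.4% of all genes were, among them Hotairm1 (log2 -1.37), Hoxb3os (-2.32), the microRNA host locus Mir196a-1 (-1.38) and Mir196b (-4.49), while Hoxa11os had 0.46 and Hoxb5os -0.8. Hotair, the noncoding RNA of the HoxC cluster, had 16 counts over the DMSO fibroblasts (0.252 ± 0.047 CPM, SD, n = 3) and 8 over the DMSO kidneys (0.107 ± 0.133 CPM, SD, n = 4), and Hottip of the HoxA cluster had 0 counts in every group.

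Cofactors and regulators of Hox genes gave a few calls of their own. Among cofactors that bind DNA jointly with Hox proteins, Meis1 was higher by 1.15 and Meis3 by 2.37 on the log2 scale in DMSO fibroblasts than in DMSO kidney, and Pknox2 was lower (-1.17), so that 2 of 9 tested cofactors of this family were higher (22.8% of all genes) and 1 was lower (32.4%). Pknox2 was named after its value was seen. Meis2, at -0.5, did not pass the fold threshold. With age in kidney Meis3 was higher, 4.05 to 6.89 against 0.351 to 1.46 CPM (log2 2.29 ± 0.38, adjusted p 0.00514 by edgeR), as 1 of 9 tested cofactors of its family, where 5.68% of all genes were higher. Aldh1a1 (34.3 to 85.1 against 14.2 to 17.4 CPM) and Aldh1a2 (41.8 ± 16.2 against 11.8 ± 1.95 CPM, SD, n = 4), enzymes that make retinoic acid, were also higher, log2 1.96 and 1.78, as 2 of 11 tested retinoic acid genes (5.68% of all genes). Of the Polycomb list 0 of 17 and of the Trithorax list 0 of 9 were called there. In old liver Cyp26a1, which breaks down retinoic acid, was higher at 31.8 to 106 against 10.3 to 24.6 CPM (log2 1.96 ± 0.38, adjusted p 0.02579 by edgeR), where 1.69% of all genes were higher. In fibroblasts with 3C the Polycomb gene Cbx7 was higher (log2 1.44 ± 0.27, adjusted p 0.016 by edgeR) and the retinoic acid binding proteins Crabp1 (log2 -1.33) and Crabp2 (-1.52) were lower. Of all genes 1.23% were higher and 0.632% lower there. No link between these genes and the Hox levels was tested. Cell makeup moved with age in kidney and liver, as given above, and its part in these values was not tested either.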
